A study of Mus musculus with 6 samples.

Results

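The genes for ATP-binding cassette (ABC) transporters were followed over a day in mouse kidney. They were chosen by gene symbol alone (Abc, a subfamily letter from a to g, a number and at most 1 further letter), and all transcripts of a symbol were added up. The rule found 50 genes among 51803 gene symbols, with 261 transcripts. The kidneys came from BALB/c males (an inbred strain) aged 8 weeks and kept in a light/dark cycle, and total RNA was sequenced. There was 1 library at each of 6 zeitgeber times (ZT, hours counted from lights on), every 4 h from ZT0 to ZT20. The labels name no other treatment or genotype, and do not say whether a library is 1 mouse or a pool. Without replicates, differences between times have no replicate check. The standard error (SE) of a daily wave is taken from how far the 6 points lie off the fitted curve. That spread is drawn toward the spread usual for genes of similar level. The p-values of the fit rest on the same moderated spread, and permutation p-values rest on the order of the libraries. Neither kind measures the spread between replicates of the same time.

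ABC proteins bind and split ATP, and most of them use it to move a substrate across a membrane. In the proximal tubule of the kidney, pumps at the apical membrane secrete drugs, urate and conjugates into the urine. Other members move cholesterol and phospholipids out of cells, carry fatty acids into peroxisomes or serve mitochondria. The E and F subfamilies have the ATP-binding domains without a membrane domain and act on ribosomes. Levels are given in FPKM, in which fragments are divided by transcript length and library size, so that levels of different genes can be set beside each other.

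Abcg2, which encodes the urate and drug exporter BCRP of the apical proximal tubule membrane, had the highest mean of the 50 genes (179 FPKM), and its transcripts begin at several annotated sites. The 250 bases upstream of the 3 start sites that RefSeq gives (GRCm38.p6, forward strand) are shown because the deposited levels separate these sites. Capitals mark the hexamer AGGTCA or its reverse complement TGACCT, the half-site bound by many nuclear receptors. The windows are chr6:58584283-58584532, chr6:58596422-58596671 and chr6:58640296-58640545.
Upstream start: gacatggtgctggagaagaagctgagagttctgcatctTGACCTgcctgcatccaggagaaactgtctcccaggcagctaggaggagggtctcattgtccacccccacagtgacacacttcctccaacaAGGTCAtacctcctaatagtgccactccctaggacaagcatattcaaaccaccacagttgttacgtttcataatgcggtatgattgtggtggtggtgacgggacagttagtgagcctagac
Middle start: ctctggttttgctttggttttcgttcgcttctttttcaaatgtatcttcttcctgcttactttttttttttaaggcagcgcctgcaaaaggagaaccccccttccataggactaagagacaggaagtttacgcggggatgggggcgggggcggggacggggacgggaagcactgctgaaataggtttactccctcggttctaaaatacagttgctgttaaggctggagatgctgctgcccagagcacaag
Downstream start: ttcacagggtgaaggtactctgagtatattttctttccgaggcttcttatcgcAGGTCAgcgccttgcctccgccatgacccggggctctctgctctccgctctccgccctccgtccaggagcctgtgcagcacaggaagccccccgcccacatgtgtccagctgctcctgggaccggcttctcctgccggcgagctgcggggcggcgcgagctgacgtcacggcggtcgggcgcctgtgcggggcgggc
Transcripts that begin within 100 bases of the downstream start summed to a mean of 172 FPKM, or 96.0% of the gene. The single transcript at the middle start, Abcg2-201, had a mean of 6.04 FPKM (3.37%), and the 2 transcripts at the upstream start were listed at 0 in every library. The share of Abcg2-201 stayed between 3.15% and 3.56% over the 6 libraries. The downstream window holds 1 AGGTCA match and is 67.6% G and C, the upstream window holds 2 matches and is 51.2% G and C, and the middle window holds none. AGGTCA on either strand is in 14.0% of the 32851 windows of the same length in the RefSeq table, and a match is a description of the letters, not a binding site.

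Of the 50 genes, 32 had a mean of at least 1 FPKM and were tested for a daily wave. In that group 3 genes were above 100 FPKM, 10 lay between 10 and 100 FPKM and 19 between 1 and 10 FPKM. The 3 highest were Abcg2, Abcd3 and Abca3, with means above those of 97.2%, 96.8% and 95.7% of the 12709 genes tested. The ranges of Abcg2 and Abcd3 overlapped, as did those of Abcd3 and Abca3, while the lowest Abca3 value lay above every value of Abce1, the fourth gene in the order. These 4 genes together made up between 68.2% (ZT12) and 71.7% (ZT4) of the summed FPKM of the 50 genes.

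**Figure D1:**
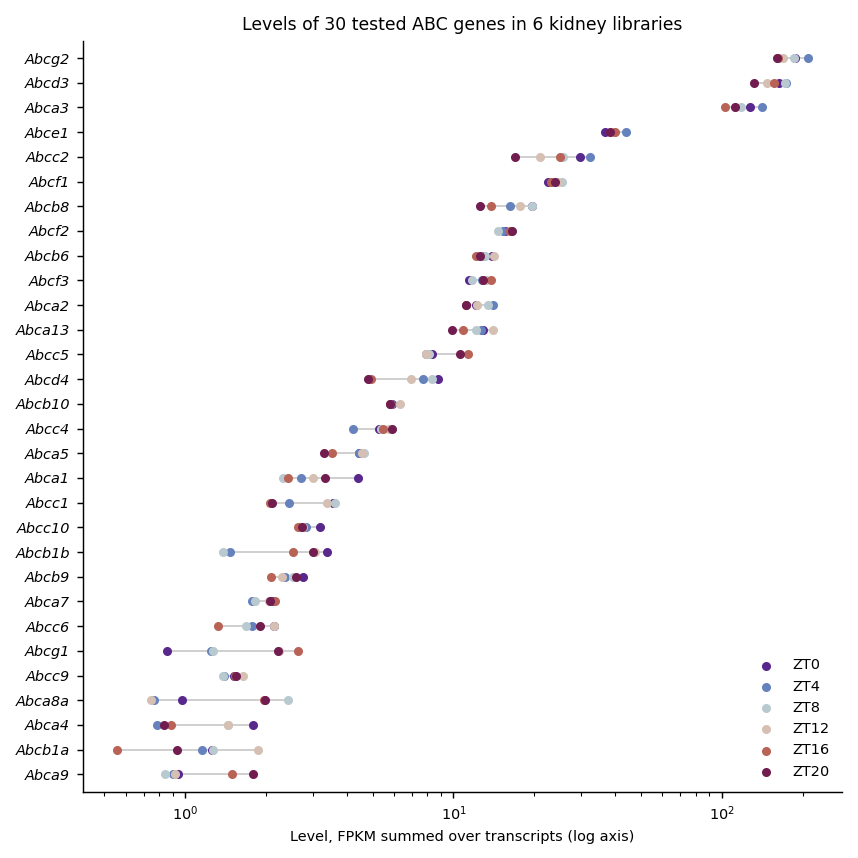
Level of 30 of the 32 tested ABC genes (FPKM, log axis) in the 6 libraries, with 1 point per library coloured by zeitgeber time and a grey line from the lowest to the highest. The means run from 179 FPKM for Abcg2 to 1.15 FPKM for Abca9, and the widest spreads are among the genes near 1 FPKM.

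The other 18 genes stayed under 1 FPKM in every library. Abcc3, a basolateral exporter of conjugates, was the highest of them, between 0.423 and 0.805 FPKM, followed by Abca8b between 0.224 and 0.311 FPKM and Abcg3 between 0.0453 and 0.194 FPKM. The genes best known from liver and bile were near 0. Abcb11, the bile salt export pump, did not exceed 0.0894 FPKM, Abcb4, which moves phosphatidylcholine into bile, 0.0484 FPKM, and the plant sterol exporter pair Abcg5 and Abcg8 0.153 and 0.0267 FPKM. Abcc8, the sulphonylurea receptor subunit of pancreatic beta cells, stayed at or under 0.0367 FPKM. Abca15 and Abca16 were listed at 0 in all libraries, and Abca6, Abca12, Abca14, Abca17, Abcb5, Abcc12, Abcd2 and Abcg4 had means under 0.1 FPKM.

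The series asks which kidney genes follow the day. A cosine of 24 h was fitted to log2(FPKM + 1) of every gene tested (limma, moderated F test, Benjamini-Hochberg adjustment over 12709 genes). Of the 32 ABC genes 0 passed an adjusted p of 0.05, against 36 of all genes (0.283%). At an unadjusted p under 0.05 there were 6 of 32 (18.8%), beside 2428 of all genes (19.1%), so the share of ABC genes was near the background. Their median amplitude, from mean to peak on the log2 scale, was 0.15, and that of all genes tested was 0.13. With coding transcripts only the order turned, to 0.11 and 0.12. An amplitude of 0.5 or more was fitted to 0 of 32 ABC genes and to 2.67% of all genes (with a pseudocount of 0.1 FPKM in place of 1, Abcg1 was at 0.70 and Abcb1b at 0.53), and one of 0.25 or more to 5 ABC genes (15.6%) and 16.5% of all genes. The median ratio of the highest to the lowest library was 1.38 for ABC genes and 1.35 for all genes.

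**Figure D2:**
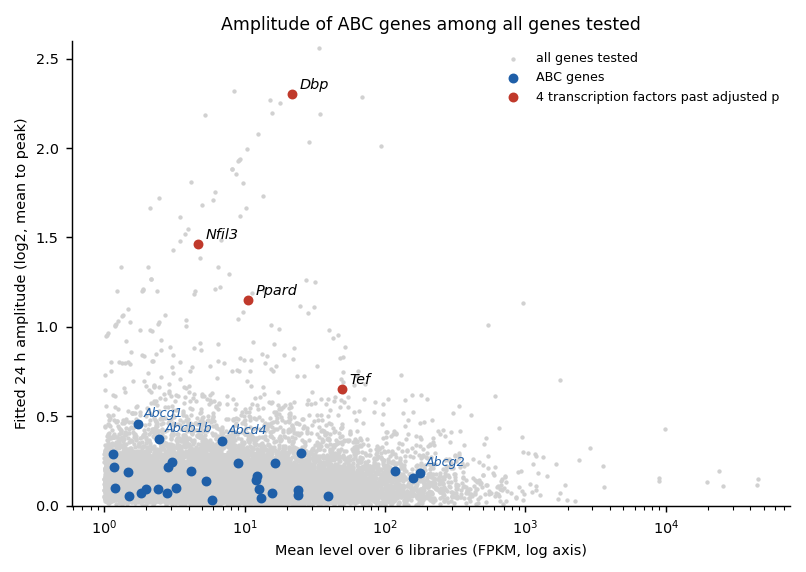
Fitted 24 h amplitude (log2, mean to peak) against mean level (FPKM, log axis) for all 12709 genes tested (grey), the 32 ABC genes (blue) and the 4 transcription factors of the related list that passed the adjusted test (red). Every ABC gene lies under an amplitude of 0.5, while Dbp stands at 2.30.

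Markers were checked against the label of kidney. The summed level of 5 proximal tubule markers lay between 1603 and 1841 FPKM, and the adrenal enzymes Cyp11b1 and Cyp11b2 and the brown fat gene Ucp1 were at 0. The adrenal gene Star lay between 0.122 and 0.243 FPKM, and the fat genes Adipoq and Plin1 reached 0.667 and 0.548 FPKM at ZT8. Of the liver list, Alb lay between 0.732 and 1.29 FPKM, Apob between 14.4 and 20.7 FPKM and Cyp2e1 between 655 and 1165 FPKM. Summed endothelial markers (Pecam1, Emcn and Kdr) were 43.0 FPKM at ZT16 and 49.9 FPKM at ZT20 against 27.3 to 33.8 FPKM at the other times, and 3 blood markers 278 and 264 FPKM against 110 to 181 FPKM. Of the endothelial genes 1 of 3, and of the blood genes 3 of 3, had an unadjusted p under 0.05, and 2 blood genes passed after adjustment. The podocyte gene Nphs1 had its highest levels at ZT16 (2.18 FPKM) and ZT20 (2.98 FPKM), against 0.712 to 1.64 FPKM elsewhere. The sum of 4 leukocyte markers lay between 13.9 and 15.4 FPKM, and its genes took different courses. Ptprc (1.87 and 2.10 FPKM) and Adgre1 (0.857 and 0.924 FPKM) were highest at ZT16 and ZT20. Csf1r, the most abundant, was highest at ZT8 (12.4 FPKM) and Cd68 at ZT0 (1.99 FPKM). Transcripts of the mitochondrial genome took 22.2% (ZT20) to 28.6% (ZT4) of all FPKM. In whole tissue, fewer cells of a type and less RNA per cell cannot be told apart.

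Among the exporters of drugs and conjugates, Abcg2 had its 3 highest levels from ZT0 to ZT8. Abcg2 (ENSMUSG00000029802, chromosome 6, 58584523 to 58695676, forward strand, GRCm38) was at 188 FPKM at ZT0, 209 at ZT4, 186 at ZT8, 169 at ZT12, 162 at ZT16 and 161 at ZT20. The 3 values from ZT0 to ZT8 lay above the 3 from ZT12 to ZT20. The fitted amplitude was 0.18 ± 0.04 (SE, n = 6 libraries) with a peak at ZT4.34, and it did not pass (limma adjusted p = 0.178, exact permutation p = 0.0667 over the 60 circular orders of the libraries, of which 0.0167 is the smallest possible). The summed proximal tubule markers were also highest at ZT4, at 1841 FPKM against 1603 to 1764 FPKM at the other times. Of the 5 genes Slc34a1, Lrp2 and Cubn were highest at ZT4, Slc5a2 at ZT0 and Slc22a6 at ZT8. Summed markers of the thick ascending limb (898 FPKM), principal cells (168.5 FPKM) and intercalated cells (48.6 FPKM) were lowest at ZT4. Among their genes Slc26a4 was highest at ZT4, and Aqp3 and Scnn1g were lowest at other times. Summed distal convoluted tubule markers were highest at ZT0 (205 FPKM). Of the 2 genes in that sum, Pvalb was highest at ZT12 (34.7 FPKM) and lowest at ZT4 (27.2 FPKM). The part of all these markers in the result was not tested.

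Abcc2, which encodes MRP2, a second apical exporter of conjugated anions in the proximal tubule, was at 29.7 FPKM at ZT0, 32.4 at ZT4, 25.6 at ZT8, 21 at ZT12, 24.9 at ZT16 and 16.9 at ZT20. It was again highest at ZT4 and lowest at ZT20, a ratio of 1.91, with an amplitude of 0.30 ± 0.12 (limma adjusted p = 0.371). With coding transcripts only the amplitude was 0.24 (limma unadjusted p = 0.0332, adjusted p = 0.197). Without the ZT16 library the amplitude was 0.51 (limma adjusted p = 0.293), and without ZT20 the fitted peak was at ZT1.10 in place of ZT4.32. Abcc4, encoding the apical exporter MRP4, was lowest at ZT4 (4.22 FPKM) and highest at ZT20 (5.88 FPKM) and had an amplitude of 0.14 ± 0.07 (limma adjusted p = 0.439), which was 0.05 without ZT4 and 0.04 with its most abundant transcript. The 2 apical MRP genes thus had their extremes at opposite libraries, but neither passed the test, and the difference between them was not tested.

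Abcc5 (ENSMUSG00000022822, chromosome 16, 20331303 to 20426394, reverse strand), an exporter of cyclic nucleotides and other organic anions, had its 2 highest levels at ZT16 and ZT20. It was at 8.31 FPKM at ZT0, 7.90 at ZT4, 8.08 at ZT8, 7.89 at ZT12, 11.3 at ZT16 and 10.6 at ZT20. The first 4 libraries differed by less than 0.5 FPKM and the last 2 stood above them. The amplitude was 0.24 ± 0.07 with a peak at ZT18.0 (limma adjusted p = 0.236). Coding transcripts held 44.5% of the FPKM of the gene, and with these alone the amplitude was 0.13 (limma adjusted p = 0.414). Without the ZT16 library it was 0.18 (limma adjusted p = 0.498). The endothelial and blood markers were highest in the same 2 libraries, and their part was not tested.

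The rodent pair Abcb1a and Abcb1b, which encodes P-glycoprotein, was low and varied widely. Abcb1a was at 1.26 FPKM at ZT0, 1.15 at ZT4, 1.27 at ZT8, 1.86 at ZT12, 0.559 at ZT16 and 0.929 at ZT20. Abcb1b was at 3.37 FPKM at ZT0, 1.47 at ZT4, 1.39 at ZT8, 3.05 at ZT12, 2.51 at ZT16 and 3.01 at ZT20. Abcb1a made up 47.8% of the pair at ZT8 and 18.2% at ZT16. These genes had the first and the fourth largest ratios of highest to lowest level among the 32 (3.34 and 2.43), with limma adjusted p of 0.589 and 0.328, so neither wave was told apart from the scatter of single libraries. The genes are near copies of each other, 8660077 to 8748575 and 8798147 to 8866315 on chromosome 5, and shared reads make their separate levels uncertain.

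The remaining exporters were flat or irregular. Abcc1, a basolateral exporter of glutathione conjugates, lay between 2.07 FPKM (ZT16) and 3.61 FPKM (ZT8), Abcc6, whose loss causes pseudoxanthoma elasticum in humans, between 1.33 FPKM (ZT16) and 2.14 FPKM (ZT12), and Abcc10 between 2.64 FPKM (ZT16) and 3.19 FPKM (ZT0). Of the 10 genes of this group 9 were tested, and 2 (Abcg2 and Abcc5) had an unadjusted p under 0.05 (19.1% of all genes). After adjustment 0 passed (0.283% of all genes). The median amplitude of the 9 was 0.22.

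**Figure D3:**
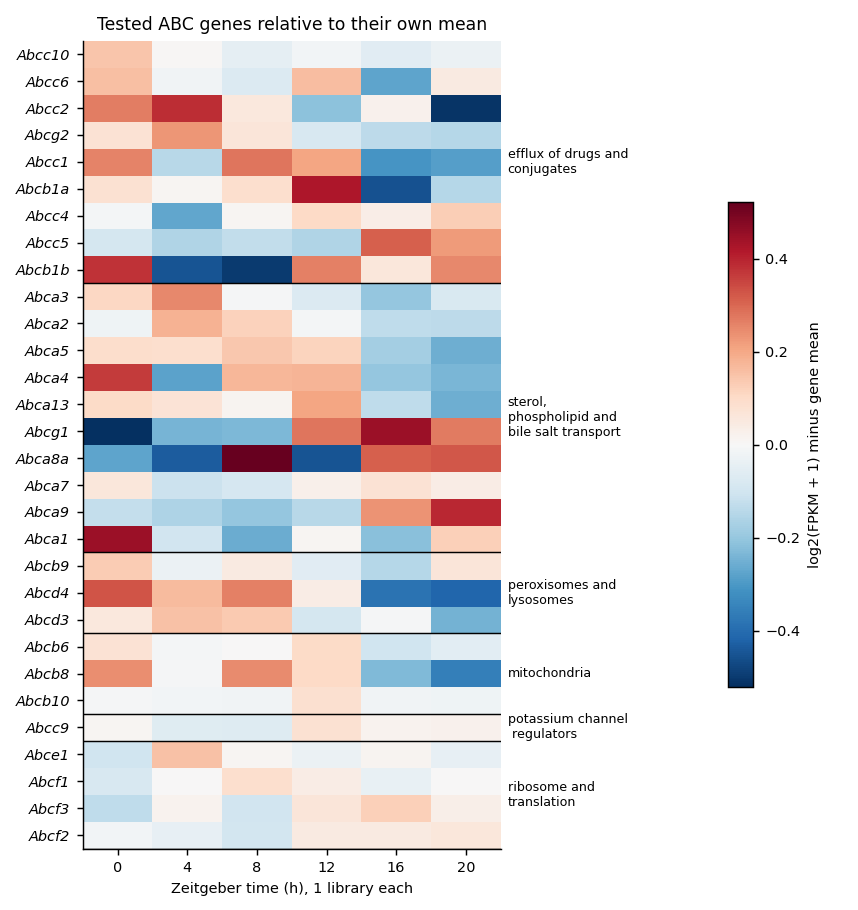
The same 30 ABC genes by time, as log2(FPKM + 1) minus its own mean over the 6 libraries, grouped by role. Red is above and blue below the mean. The darkest cells include Abca8a at ZT8 (2.42 FPKM), Abcg1 at ZT0 (0.858 FPKM) and Abcc2 at ZT20 (16.9 FPKM), and the ribosome genes are pale throughout.

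Among the genes of lipid transport, Abcg1, which passes cholesterol to high-density lipoprotein, had the largest amplitude of all 32. It was at 0.858 FPKM at ZT0, 1.25 at ZT4, 1.27 at ZT8, 2.23 at ZT12, 2.63 at ZT16 and 2.22 at ZT20. The 3 values from ZT12 to ZT20 stood above the 3 from ZT0 to ZT8, and the highest was 3.07 times the lowest. The fitted amplitude was 0.46 ± 0.10 with a peak at ZT15.3 (limma adjusted p = 0.172, the smallest of the 32; exact permutation p = 0.117). A single transcript held all of its FPKM. Abcg1 (ENSMUSG00000024030) spans 31057675 to 31117988 of chromosome 17, forward strand. Endothelial and blood markers were highest at ZT16 and ZT20. Summed principal cell markers were between 258 and 280 FPKM from ZT12 to ZT20 and between 168.5 and 208 FPKM from ZT0 to ZT8. Of their genes, Aqp3 and Scnn1g did not follow that split. The part of all these markers was not tested.

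Abca1 hands cholesterol and phospholipid to apolipoprotein A-I. Abca1 was at 4.42 FPKM at ZT0, 2.70 at ZT4, 2.32 at ZT8, 3.0 at ZT12, 2.41 at ZT16 and 3.33 at ZT20. It was highest at ZT0, where Abcg1 was lowest, with an amplitude of 0.24 ± 0.11 and a fitted peak at ZT22.8 (limma adjusted p = 0.406). The amplitude was 0.11 without ZT0 and 0.40 without ZT12 (limma adjusted p = 0.747 and 0.313). The 250 bases upstream of its start hold 1 E-box, the letters CACGTG to which the clock activators bind, as do those of Abca8a, Abca15, Abcc4 and Abcf1. These are 5 of the 38 ABC genes with a window in the RefSeq table, and 6.86% of all genes there have one. The D-box (TTATGTAA or TTACGTAA) was in 0 of the 38 and in 1.09% of all genes.

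**Figure D4:**
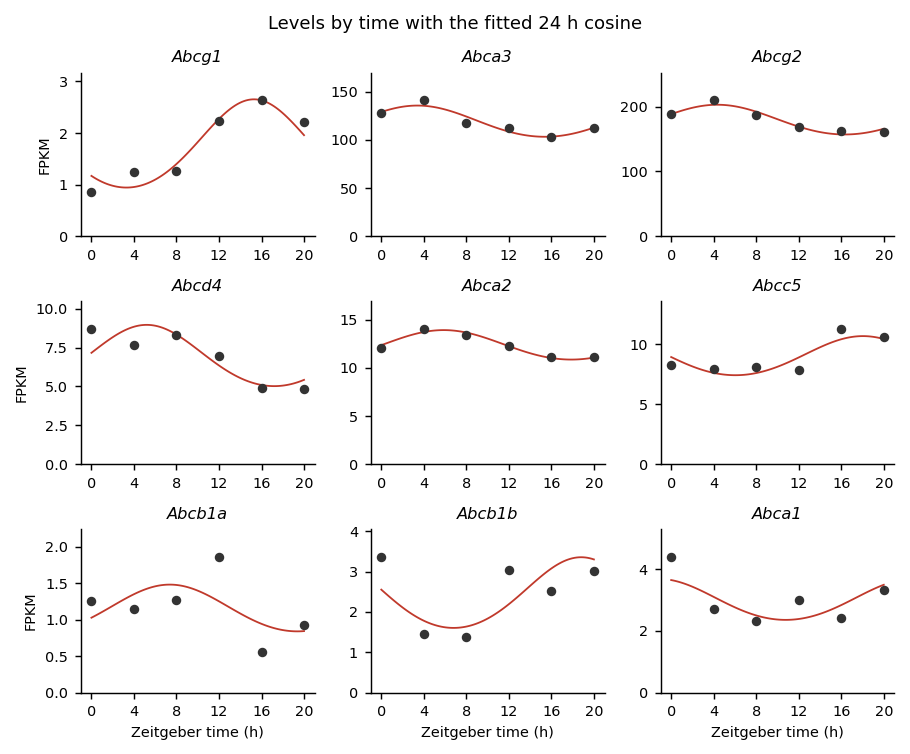
Level (FPKM) by zeitgeber time in single libraries (points) with the fitted 24 h cosine (line) for the 6 ABC genes with an unadjusted p under 0.05 (Abcg1, Abca3, Abcg2, Abcd4, Abca2 and Abcc5) and for Abcb1a, Abcb1b and Abca1. Abcg1 lies between 0.858 and 2.63 FPKM, while Abcb1a departs from its curve at ZT12 (1.86 FPKM) and ZT16 (0.559 FPKM).

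Abca3 and Abca2 had their highest summed levels at ZT4, and neither wave passed after adjustment. Abca3, known for loading phospholipid into lamellar bodies in the lung, was the third most abundant ABC gene of these kidneys, with 128 FPKM at ZT0, 141 at ZT4, 118 at ZT8, 112 at ZT12, 103 at ZT16 and 112 at ZT20. Its lowest value from ZT0 to ZT8 was above its highest from ZT12 to ZT20. The amplitude was 0.20 ± 0.05 with a peak at ZT3.39 (limma adjusted p = 0.178, exact permutation p = 0.0333), and the gene lies on chromosome 17 from 24351950 to 24410201 (ENSMUSG00000024130, forward strand).

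Abca2 (ENSMUSG00000026944, chromosome 2, 25428703 to 25448540, forward strand), which acts on lipids in endosomes and lysosomes, was at 12.1 FPKM at ZT0, 14.1 at ZT4, 13.5 at ZT8, 12.2 at ZT12, 11.1 at ZT16 and 11.1 at ZT20. The values descended from ZT4 on, and the cosine took 0.97 of their variance, the largest share among the 32. The amplitude was 0.17 ± 0.04 with a peak at ZT5.87 (limma adjusted p = 0.212). With coding transcripts only it was 0.11 with a peak at ZT3.86 (limma adjusted p = 0.406). The coding Abca2-201 was highest at ZT0 (11.0 FPKM) and was at 10.3 FPKM at ZT4.

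Abca5, Abca6, Abca8a, Abca8b and Abca9 lie side by side on the reverse strand of chromosome 11, between 109932190 and 110337716, and their levels took different courses. Abca9 was at 0.943 FPKM at ZT0, 0.899 at ZT4, 0.843 at ZT8, 0.919 at ZT12, 1.5 at ZT16 and 1.79 at ZT20 (amplitude 0.29 ± 0.09, limma adjusted p = 0.263, exact permutation p = 0.0167, the smallest possible). Abca5, a lysosomal lipid transporter, was between 4.44 and 4.66 FPKM from ZT0 to ZT12 and at 3.53 and 3.29 FPKM at ZT16 and ZT20 (amplitude 0.19 ± 0.07, adjusted p = 0.289). At ZT16 and ZT20 Abca9 was thus above, and Abca5 below, its values at the other 4 times. Neither wave passed after adjustment, and the endothelial and blood markers were highest in the same 2 libraries, with their part not tested.

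The summed level of Abca8a changed from library to library with no clear daily order. It was at 0.973 FPKM at ZT0, 0.766 at ZT4, 2.42 at ZT8, 0.744 at ZT12, 1.96 at ZT16 and 1.99 at ZT20 (amplitude 0.19 ± 0.22, limma adjusted p = 0.83). A short noncoding transcript, Abca8a-206, took 73.2% of its level at ZT8 and was at 0 at ZT4 and ZT12. The coding transcripts were not highest at ZT8. Among the more abundant of them, Abca8a-201 was highest at ZT16 (0.871 FPKM) and Abca8a-204 at ZT20 (0.781 FPKM). The fat genes Adipoq and Plin1 were at 0.667 and 0.548 FPKM in the ZT8 library and at or under 0.0432 FPKM in the others, and their part was not tested.

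Abca4, which clears retinoids from photoreceptor discs in the retina, completed the genes with the largest ratios. It was at 1.79 FPKM at ZT0, 0.784 at ZT4, 1.44 at ZT8, 1.45 at ZT12, 0.882 at ZT16 and 0.837 at ZT20 (limma adjusted p = 0.896). ZT0 and ZT4, which are neighbours, held the highest and the lowest value. Abca7, a phospholipid transporter linked to phagocytosis, stayed between 1.78 and 2.16 FPKM, and Abca13, the longest protein of its subfamily, between 9.90 and 14.0 FPKM. Of the 18 lipid genes 10 were tested, 3 (Abcg1, Abca3 and Abca2) had an unadjusted p under 0.05 (19.1% of all genes) and 0 passed. The median amplitude was 0.19.

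In peroxisomes and lysosomes, Abcd3, a peroxisomal importer of branched-chain fatty acids and bile acid intermediates, had the second highest level of the 50 genes. It was at 163 FPKM at ZT0, 174 at ZT4, 172 at ZT8, 147 at ZT12, 156 at ZT16 and 132 at ZT20. The 3 values from ZT0 to ZT8 lay above the later 3, with an amplitude of 0.16 ± 0.06 (limma adjusted p = 0.326). With coding transcripts only it was 0.09 (limma adjusted p = 0.602), and it was 0.24 without ZT16 and 0.10 without ZT20.

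Abcd4 (ENSMUSG00000021240, chromosome 12, 84601464 to 84617413, reverse strand), which is needed to release vitamin B12 from lysosomes, had one of the larger amplitudes. It was at 8.72 FPKM at ZT0, 7.69 at ZT4, 8.29 at ZT8, 6.96 at ZT12, 4.93 at ZT16 and 4.82 at ZT20. The values at ZT16 and ZT20 lay below the other 4, and the highest was 1.81 times the lowest. Blood and endothelial markers and Nphs1 were highest in the same 2 libraries, and their part was not tested. The amplitude was 0.36 ± 0.09 with a peak at ZT5.20 (limma adjusted p = 0.206, exact permutation p = 0.2). Abcb9, a lysosomal peptide transporter, stayed between 2.09 and 2.75 FPKM. Of the 5 genes of this group 4 were tested, 1 (Abcd4) had an unadjusted p under 0.05 (19.1% of all genes) and 0 passed.

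All 4 mitochondrial genes were tested, and 0 had an unadjusted p under 0.05 or passed. Abcb6, a porphyrin transporter, lay between 12.1 and 14.1 FPKM, and Abcb10, which is needed for haem synthesis in red cell precursors, between 5.79 and 6.32 FPKM, the narrowest range of the 32 with a ratio of 1.09.

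Abcb8 was the widest of the 4, and its transcripts did not move together. The sum was at 19.6 FPKM at ZT0, 16.3 at ZT4, 19.6 at ZT8, 17.7 at ZT12, 13.8 at ZT16 and 12.6 at ZT20 (amplitude 0.24 ± 0.09, limma adjusted p = 0.345). The coding transcript Abcb8-201 was at 8.00 FPKM at ZT0, 12.1 at ZT4, 11.5 at ZT8, 11.5 at ZT12, 6.50 at ZT16 and 4.69 at ZT20. The coding transcript Abcb8-203 was at 5.35 FPKM at ZT0, 0.746 at ZT4, 2.44 at ZT8, 2.27 at ZT12, 5.15 at ZT16 and 6.0 at ZT20. Abcb8-201 had its 3 highest levels from ZT4 to ZT12 and Abcb8-203 its 3 highest at the other times, and only at ZT20 was Abcb8-203 the higher of the pair. The share of Abcb8-201 went from 74.1% at ZT4 to 37.4% at ZT20, and that of Abcb8-203 from 4.58% to 47.8%. With the most abundant transcript of every gene in place of the sum, the amplitude for Abcb8 was 0.60, peaking at ZT7.39 (limma adjusted p = 0.127). The split of reads among overlapping transcripts is the authors' estimate, and its error is not in the table.

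**Figure D5:**
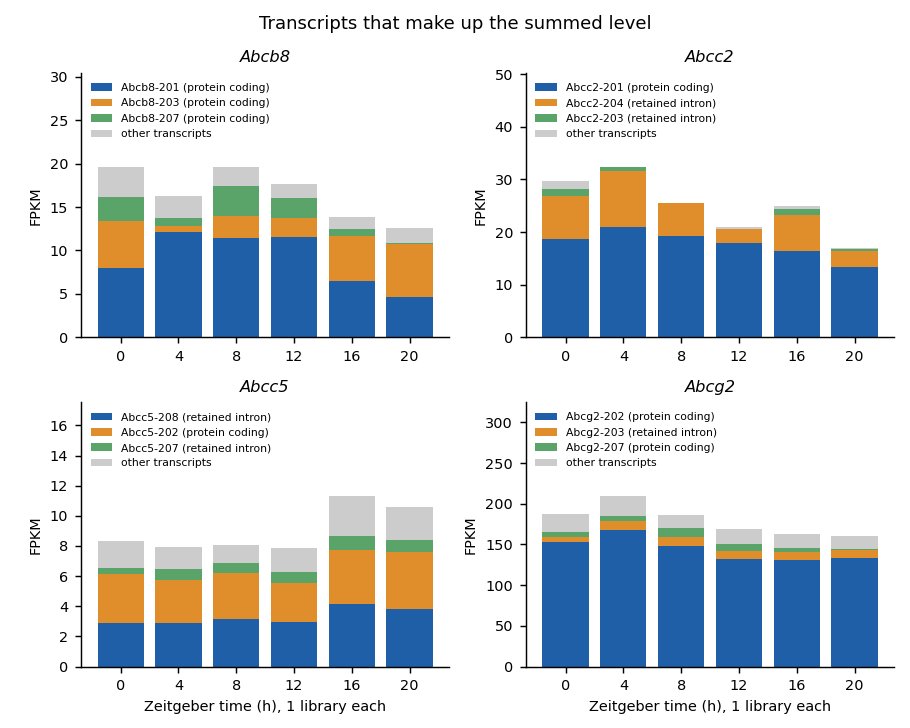
Transcripts behind the summed level (stacked bars, FPKM) of Abcb8, Abcc2, Abcc5 and Abcg2 by zeitgeber time. Within Abcb8 the share of Abcb8-201 is 74.1% at ZT4 and 37.4% at ZT20, while Abcg2-202 keeps 78.7% to 83% of Abcg2 in every library.

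Retained introns made up part of other sums. In Abcc2 the transcript Abcc2-204, a retained intron of 566 bases, took between 12.6% (ZT12) and 33.0% (ZT4), and the coding Abcc2-201 was lowest at ZT20 (13.4 FPKM) and highest at ZT4 (20.9 FPKM). In Abcc5 a retained intron form, Abcc5-208, was the most abundant transcript with 36.6% of the gene. In Abca7 the 2 coding forms Abca7-202 and Abca7-203 exchanged rank, with Abca7-202 at 70.6% at ZT16 and 38.0% at ZT20.

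Abcc9, the sulphonylurea receptor subunit SUR2 of vascular potassium channels, stayed between 1.39 and 1.65 FPKM (limma adjusted p = 0.855). The channel pore gene Kcnj8, which works with it, lay between 1.94 and 2.96 FPKM and Kcnj11 between 0.149 and 0.455 FPKM. The 4 genes that act on ribosomes had a median amplitude of 0.07, near the 0.06 of the mitochondrial genes, with 0 of 4 at an unadjusted p under 0.05 and 0 passing. Abce1, which splits ribosomes after termination, was at 36.7 FPKM at ZT0, 44.1 at ZT4, 39.7 at ZT8, 38.6 at ZT12, 39.9 at ZT16 and 38.3 at ZT20 (amplitude 0.06 ± 0.05, limma adjusted p = 0.768). Only ZT4 stood off. Abcf1, a factor of translation initiation, lay between 22.4 and 25.4 FPKM, Abcf2 between 14.7 and 16.5 FPKM and Abcf3 between 11.4 and 13.8 FPKM.

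Added over all 50 genes, ABC transcripts were at 744 FPKM at ZT0, 793 at ZT4, 736 at ZT8, 684 at ZT12, 672 at ZT16 and 644 at ZT20. The sum was highest at ZT4 and lowest at ZT20, also when rescaled by size factors or to nuclear transcripts. Abcg2, Abcd3 and Abca3 dominate it, and the summed levels of all 3 were highest at ZT4. The coding Abcd3-201 alone was highest at ZT0 (160 FPKM) and was at 152 FPKM at ZT4. The lowest of the 6 levels fell at ZT16 or ZT20 in 17 of the 32 tested genes, 8 at ZT16 and 9 at ZT20 (28.1%), beside 17.2% and 16.5% of all genes tested. This is a count over genes that share the same libraries, and it was not tested. At ZT4 the share went the other way, with 3 of 32 genes (9.38%) lowest there beside 25.8% of all genes. When rescaled to nuclear transcripts, 11 genes were lowest at ZT16 and 5 at ZT20, 16 of 32 together. Abcg2, Abca2 and Abcd4 moved from ZT20 to ZT16. Under that scaling 9 genes were lowest at ZT8, in place of 5 as deposited. The shares of all genes were worked out for the deposited levels only. Summed proximal tubule markers were highest at ZT4, where summed thick ascending limb, principal cell and intercalated cell markers were lowest. Blood and endothelial markers and Nphs1 were highest at ZT16 and ZT20, and the part of all these markers was not tested.

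Genes outside the symbol rule were taken from lists of relatives, partners and regulators. The ABC genes with other names, Tap1 and Tap2 of antigen presentation and the chloride channel gene Cftr, had 0 of 3 at an unadjusted p under 0.05, with limma adjusted p between 0.266 (Cftr) and 0.498 (Tap1). Of 11 partners 9 were tested, 5 had an unadjusted p under 0.05 (19.1% of all genes) and 0 passed (0.283% of all genes). Pex3, which inserts proteins into the peroxisome membrane, lay between 16.6 FPKM (ZT20) and 23.2 FPKM (ZT8), and Fech, the last enzyme of haem synthesis, between 54.2 FPKM (ZT20) and 70.0 FPKM (ZT8). Apoe, a lipid acceptor, was highest at ZT20 (152 FPKM) and lowest at ZT4 (66.1 FPKM). Pelo, which acts with Abce1 on stalled ribosomes, lay between 6.70 FPKM (ZT0) and 10.3 FPKM (ZT16), and Slc9a3r1, the apical scaffold NHERF1, between 117 FPKM (ZT0) and 144 FPKM (ZT12).

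The last list held nuclear receptors and other factors of drug, lipid and kidney genes with clock-driven factors (Dbp, Tef, Hlf and Nfil3). Of 17 factors 15 were tested, 6 had an unadjusted p under 0.05, and 4 passed after adjustment over all genes. The shares of all genes tested were 19.1% and 0.283%, and the list was chosen to hold those clock-driven factors. The 4 were Dbp (amplitude 2.30 ± 0.15, limma adjusted p = 0.029), Tef (0.65, 0.0326), Ppard (1.15, 0.0326) and Nfil3 (1.46, 0.0423). On the scale of log2(FPKM + 1), each of these amplitudes was above that of any ABC gene. By the ratio of highest to lowest level, however, Tef (2.48) lay below Abcg1 (3.07). The factors Hlf and Nr1h4, the bile acid receptor FXR, had an unadjusted p under 0.05, and Nr1h4 ran from 39.8 FPKM at ZT16 to 89.4 FPKM at ZT8 (amplitude 0.42, adjusted p = 0.236). The oxysterol receptor genes Nr1h3 and Nr1h2, which control Abca1 and Abcg1, lay between 19.6 and 28.0 FPKM and between 27.9 and 32.5 FPKM, with adjusted p of 0.304 and 0.581. A difference between a factor and an ABC gene was not tested.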

How the data were processed

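FPKM per Ensembl transcript was deposited by the authors in a single table, per the file headers. Per the submitters' processing notes, bcl2fastq 2.20 and mm9 were used, and the labels describe strand-specific libraries. Aligner and quantifier: not given in the sources used here. FPKM values hold no read counts, so depth is unknown and no counting interval is given. Steps of whole reads were not recovered, since 98.0% to 98.7% of the lowest values in each library differed from one another. Of 261 member transcripts 260 were matched by identifier to GENCODE mouse annotation on GRCm38, and 258 lay inside the deposited locus, so positions are given on that build.

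Transcripts were summed per symbol. The 12709 symbols whose mean reached 1 FPKM were fitted on log2(FPKM + 1), a scale that understates changes of low genes, with a cosine and a sine of 24 h in limma 3.58.1 (R 4.3.3, eBayes with trend, moderated F test, 3 residual degrees of freedom, Benjamini-Hochberg threshold 0.05). Exact permutation p-values of single genes are one-sided: the share of the 60 circular orders whose cosine takes at least as much variance. The fit was tested on simulated data.

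Values in all 6 libraries are given for genes with an unadjusted p under 0.05, the 5 highest means and the 5 largest ratios of highest to lowest level. Abca1, Abca9, Abcb8 and the transcripts named were added after their values were seen. The members, lists and motifs were chosen with earlier results of these data known. Promoter sequences are from RefSeq (GRCm38.p6), with 38 of 50 symbols matched. Other steps used Python 3.11.15, pandas 2.3.3 and matplotlib 3.10.9. Some genes are not reported here. Alternatives are named in the closing section.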

Additional observations from a re-analysis of the deposited data

How the results depend on the processing

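The count of ABC genes past the adjusted threshold was 0 under all 17 alternatives: a pseudocount of 0.1, no minimum level, a minimum mean of 5 FPKM, size factors, quantile normalization, rescaling to nuclear transcripts, the most abundant transcript, coding transcripts only, limma without trend or with robust moderation, ordinary least squares, and leaving out every time once. Coding transcripts only was chosen after seeing the data. The count at an unadjusted p under 0.05 was 3 by ordinary least squares (13.1% of all genes) in place of 6, and between 3 and 11 with a time left out. It was 11 without ZT0, and 3 without ZT16 or without ZT20, where the share of all genes was 17.9%, 12.7% and 9.10%. The median amplitude was 0.0875 with no minimum, over 48 genes that include those near 0, beside 0.0841 for all genes. It was below that of all genes with the most abundant transcript (0.105 against 0.136), with coding transcripts only (0.112 against 0.123) and without ZT20 (0.12 against 0.125). An amplitude of 0.5 or more was reached by Abcg1 (0.70) and Abcb1b (0.53) with a pseudocount of 0.1, by Abcg1 without ZT4 (0.59), Abca8a without ZT8 (0.52), Abcc2 without ZT16 (0.51) and Abcb8 with its most abundant transcript (0.60). In these alternatives no gene with an unadjusted p under 0.05 had its peak moved by more than 6 h. Of the 6 genes, Abcg2 kept that level under 15 of 17 alternatives, Abca3 under 14, Abcg1 under 14 of 16, Abcd4 under 13, Abca2 under 10 and Abcc5 under 8. Abca2 lost it in every omission except that of ZT0. Of the other genes, Abca9 reached it most often, under 5 of 16 alternatives, and Abcc2 under 4 of 17. For Abcc2 these included coding transcripts only and its most abundant transcript. Abca5 reached it under 3 of 16, and Abcb8 without ZT0 or ZT4 and with its most abundant transcript. The cause was not tested. No paired analysis was possible because each time has a single library. Unknown depth limits what can be said of the 18 genes under 1 FPKM.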

Other observations

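Some minor transcripts spread more widely over the libraries, relative to their own mean, than their genes. Abcd3-205, annotated as a target of nonsense-mediated decay, was listed at 0.00702 FPKM at ZT0, 19.8 at ZT4, 10.2 at ZT8, 5.99 at ZT12, 2.54 at ZT16 and 0 at ZT20. The coding Abcd3-201 was meanwhile between 130 FPKM (ZT20) and 160 FPKM (ZT0). Abca2-204, a noncoding transcript of 519 bases, was at 0.392 FPKM at ZT0, 2.50 at ZT4, 2.56 at ZT8, 1.69 at ZT12, 0.962 at ZT16 and 0.693 at ZT20, while the coding Abca2-201 was highest at ZT0 (11.0 FPKM) and lowest at ZT16 (8.84 FPKM). Abca3-206, a retained intron, was at 7.15 FPKM at ZT4 and at or under 0.790 FPKM in the other libraries. All 3 were noticed after their values were seen and were not tested.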
